A study of Mus musculus with 6 samples.

Results

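The Igkv genes, the variable (V) gene segments of the immunoglobulin kappa light chain, were followed across spleen B cells of wild-type mice and spleens carrying a transferred mouse lymphoma. Every row of the deposited count table whose symbol begins with Igkv was taken, which gave 160 of 56884 genes. The number between Igkv and the dash names the subfamily, a group of V genes of similar sequence, and the 160 genes fell into 20 subfamilies. All lay on chromosome 6 (GRCm39), 75 on the plus strand and 85 on the minus strand, over 3148 kb between the first and last start. GENCODE release M21 typed 100 of them as V genes and 60 as pseudogenes, copies that cannot encode a working chain.

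The wild-type (WT) group held 3 libraries of B cells selected from spleen, and their column names carry BL6. The P1 group held 3 whole spleens, labelled passage 1, from an adoptive transfer model of Eµ-SOX11CCND1 mice. In such models the heavy chain enhancer Eµ directs a transgene to B lineage cells. Here the transgenes are named for SOX11, a transcription factor, and CCND1, the cell cycle protein cyclin D1. Strain, sex and age of the P1 mice are not given in the sources used here, nor is whether each spleen received cells of the same donor. The 3 P1 libraries may therefore share a transferred clone, and p-values measure only the spread between these libraries. Genotype, tumour and B cell selection differ together between the groups, so their effects cannot be told apart. No label ties a WT column to a mouse number, so these libraries are named A to C. WT A and WT B share a tag in their column names and WT C carries another, and no label explains these tags. The P1 replicates are 3, 4 and 5, as labelled.

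Each developing B cell joins a kappa V segment to a J segment (Igkj), and the joined exon is spliced to the constant exon Igkc. A V gene in the same orientation as the J segments joins by deletion of the DNA between them, and a V gene in the opposite orientation joins by inversion. A mature B cell usually makes a single light chain, so a mixed population uses many V genes and a clone uses few. Igkc and the Igkj segments lay on the plus strand of the table. V genes near the J segments are called proximal here and those far away distal, and the span was cut into 3 zones of equal length, 1049 kb, holding 47 distal, 60 middle and 53 proximal genes.

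Igkv12-44, on which most of the results turn, lay on chromosome 6 at 69791615 to 69792138 (GRCm39) on the minus strand, opposite to the J segments. It was 907.4 kb from Igkj1, in the proximal zone, with 45 other Igkv genes between. Its V exon is shown with those of its closest working relatives, because reads from shared stretches could be counted for any of them. The sequences are from GENCODE release M21 transcripts (GRCm38), 5′ to 3′. Capitals in Igkv12-44 mark bases that differ from both relatives, and capitals in the relatives mark bases that differ from Igkv12-44.
Igkv12-44: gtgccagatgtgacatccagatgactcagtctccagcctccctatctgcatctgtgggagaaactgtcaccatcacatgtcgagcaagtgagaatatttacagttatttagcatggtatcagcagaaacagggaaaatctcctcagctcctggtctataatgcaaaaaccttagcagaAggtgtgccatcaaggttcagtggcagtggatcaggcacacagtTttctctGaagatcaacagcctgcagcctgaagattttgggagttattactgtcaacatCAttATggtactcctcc
Igkv12-41: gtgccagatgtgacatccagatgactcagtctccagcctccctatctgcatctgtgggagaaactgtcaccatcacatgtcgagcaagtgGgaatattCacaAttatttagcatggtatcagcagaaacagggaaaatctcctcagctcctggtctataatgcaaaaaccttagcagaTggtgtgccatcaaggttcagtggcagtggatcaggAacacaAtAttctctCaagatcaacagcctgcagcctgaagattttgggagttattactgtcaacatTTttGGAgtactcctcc
Igkv12-46: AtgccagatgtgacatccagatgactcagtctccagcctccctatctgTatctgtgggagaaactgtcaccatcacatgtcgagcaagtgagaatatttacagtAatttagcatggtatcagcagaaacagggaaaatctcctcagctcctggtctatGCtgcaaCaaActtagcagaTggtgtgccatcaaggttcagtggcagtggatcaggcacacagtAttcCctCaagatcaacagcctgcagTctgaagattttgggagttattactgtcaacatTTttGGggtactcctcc
Over 298 bases, Igkv12-41 was 95.6% identical to Igkv12-44 with 13 differences, and Igkv12-46 was 94.6% identical with 16. Only 7 positions of Igkv12-44 were unlike both, 4 of them within the last 20 bases, which lie within the V part of the hypervariable loop CDR3. Of the 50-base words of the Igkv12-44 transcript, 30.7% also occurred in Igkv12-40, Igkv12-41 or Igkv12-46. The other working members were more distant, with Igkv12-38 at 85.6%, Igkv12-89 at 84.9% and Igkv12-98 at 82.9% identity.

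The libraries held 7510327 to 14266132 counts in all. Igkv genes received 9392, 12536 and 9170 counts in the WT libraries. They received 3674, 804 and 1949 in P1 3, 4 and 5, so precision was lowest in P1 4. Two-sided exact permutation tests over libraries are used for single values. With 3 libraries against 3, the smallest p that such a test can give is 0.1. Intervals in brackets are 95% exact binomial (Clopper-Pearson) intervals and cover counting error only.

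In the P1 libraries Igkv counts were lower than in WT and came from fewer V genes. Scaled to a common library total, as CPM, Igkv counts were 671.9, 878.7 and 751.9 in WT and 354.5, 107.1 and 244.6 in P1. The means were 767.5 ± 104.3 and 235.4 ± 124.0 (SD, n = 3 each), and the groups did not overlap (exact permutation p = 0.1, adjusted p = 0.2 over 2 measures). In whole tissue, fewer B cells and less RNA per cell cannot be told apart. Igkc, the kappa constant exon, had 30210, 40387 and 33203 counts in WT and 11741, 2133 and 9747 in P1. Its log2 fold change was -1.40 ± 0.44 (SE, edgeR quasi-likelihood test, adjusted p = 0.0468).

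The ratio of Igkv to Igkc counts overlapped between the groups. It was 0.311, 0.310 and 0.276 in WT and 0.313, 0.377 and 0.20 in P1 (exact permutation p = 1.0). What made up that ratio differed. Igkv12-44 alone stood at 0.00629, 0.00666 and 0.00488 of the Igkc counts in WT, against 0.197, 0.368 and 0.194 in P1. The other 159 genes together stood at 0.305, 0.304 and 0.271 in WT and at 0.116, 0.00891 and 0.00554 in P1.

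**Figure D1:**
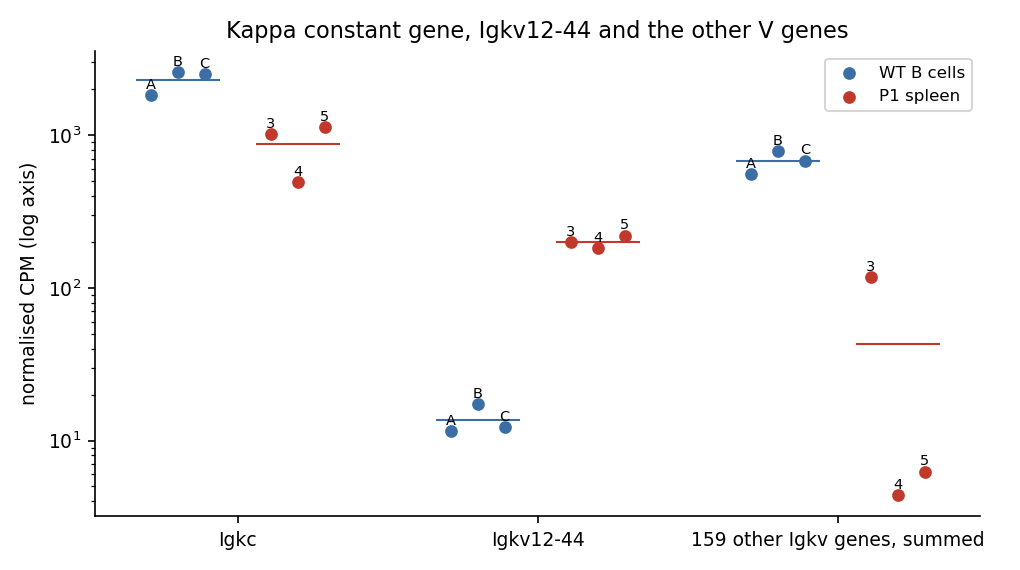
Normalised CPM (log axis) of Igkc, Igkv12-44 and the sum of the other 159 Igkv genes in each library; points are libraries, labelled by letter or replicate, and lines are group means. Igkv12-44 stands at 182 to 220 CPM in P1 and 11.5 to 17.3 in WT, and the other Igkv genes stand at 4.40 and 6.26 CPM in P1 4 and P1 5 and at 117.0 in P1 3.

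Igkv12-44 had 190, 269 and 162 counts in WT and 2313, 785 and 1895 in P1. In CPM scaled by TMM (trimmed mean of M-values) factors these were 11.5, 17.3 and 12.2 in WT and 198.9, 181.6 and 219.8 in P1. All P1 libraries lay above all WT libraries, with a log2 fold change of 3.87 ± 0.29 (SE, edgeR adjusted p = 0.000359). As a share of Igkv counts the gene took 2.02%, 2.15% and 1.77% in WT. It took 63.0% (61.4 to 64.5) in P1 3, 97.6% (96.3 to 98.6) in P1 4 and 97.2% (96.4 to 97.9) in P1 5. Scaled by library totals alone, without TMM factors, Igkv12-44 stood at 223.2, 104.5 and 237.8 CPM in P1 3, 4 and 5, so the likeness of P1 4 to the others depends on the scaling.

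In WT the counts were spread widely. The effective number of genes, the exponential of the Shannon entropy of the shares, was 55.2, 59.4 and 44.4 in WT and 7.79, 1.15 and 1.22 in P1 (exact permutation p = 0.1). The effective number of subfamilies was 12.4, 13.0 and 11.5 in WT and 4.51, 1.15 and 1.17 in P1 (exact permutation p = 0.1). A count was seen for 118, 117 and 112 genes in WT and for 83, 6 and 20 in P1. Across the WT libraries 105 genes were seen in all 3, whereas only Igkv12-44 and Igkv10-95 were seen in all 3 P1 libraries. No count was found in any library for 30 genes, of which 29 were pseudogenes and 1 was the V gene Igkv1-35.

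The 10 genes with the highest mean WT share held 38.2% of WT Igkv counts between them. Counts per kilobase of gene length correct for length but not for reads that match several V genes. On this scale Igkv5-39 stood highest in WT at 124.5 ± 5.404 CPM per kb (SD, n = 3). Igkv19-93 followed at 105.2 ± 30.8, Igkv3-4 at 91.0 ± 58.3 and Igkv6-15 at 70.6 ± 21.4. The mean of Igkv19-93 lay outside the narrow spread of Igkv5-39, while the ranges of mean ± SD overlapped between each pair of neighbours in this order. Igkv12-44 ranked 20 in WT on this scale, at 34.1 ± 7.82 CPM per kb, and 1 in P1, at 499.1 ± 47.7.

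**Figure D2:**
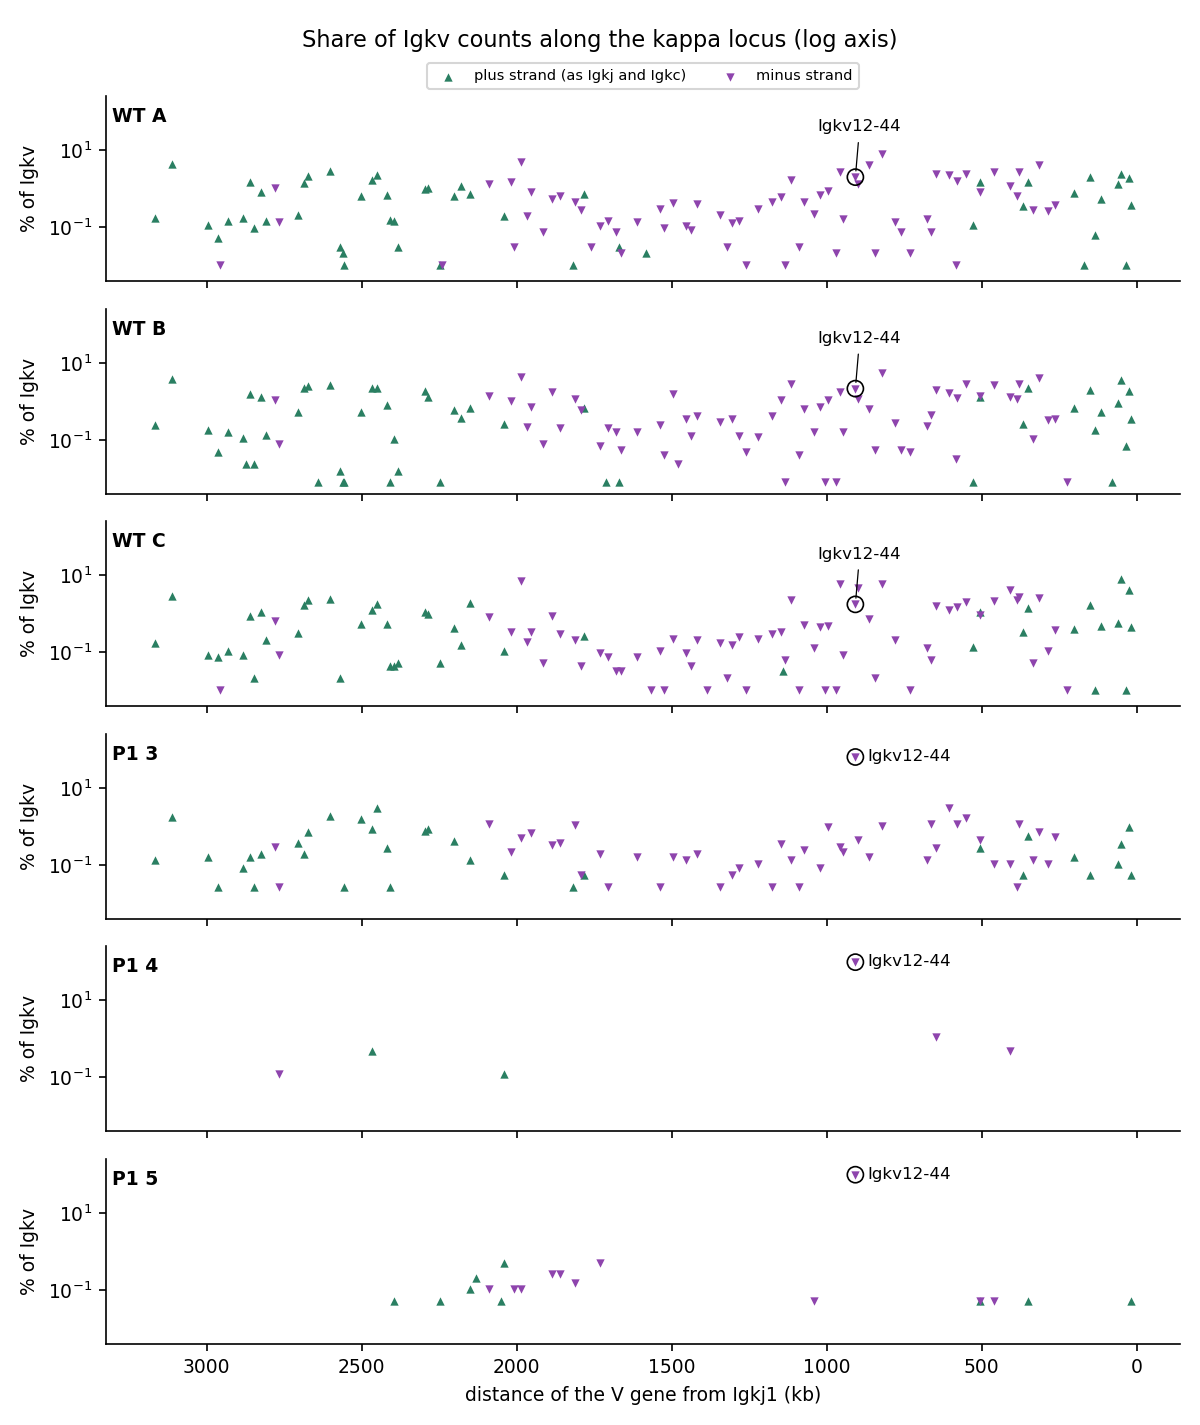
Share of Igkv counts (%, log axis) of each gene against its distance from Igkj1 (kb), 1 panel per library, with triangles pointing up for the plus strand and down for the minus strand; genes with 0 counts are not drawn, and a ring marks Igkv12-44. The WT panels and P1 3 show genes along the whole locus, whereas P1 4 shows 6 genes and P1 5 shows 20, most of the latter in a stretch between 1731.3 and 2395.8 kb from Igkj1.

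Gene by gene, most tested Igkv genes fell. A low-count filter (edgeR filterByExpr) left 69 of the 160 genes to test and 91 untested, and no pseudogene passed it. Since a gene could pass through the WT group alone, these counts describe only the genes that passed. Of the 69, 49 were lower in P1 at an adjusted p under 0.05, against 11.0% of all 15462 genes tested. Only Igkv12-44 was higher, against 16.9% of all genes. The remaining 19 passed neither way and all had log2 fold changes below 0. All 3 P1 libraries lay below all 3 WT libraries for 64 of the 69, against 24.9% of all genes, and above for 1, against 22.9%. The median log2 fold change of the 69 was -4.03, or -3.95 with the 5 genes at 0 in P1 set at their bound, beside 0.02 over all genes.

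The count of lower Igkv genes moved with single libraries. It was 75 without P1 3, beside 2313 lower among all 16255 genes tested. It was 30 without WT B, beside 815 lower among 16265. With all 6 libraries 1702 of 15462 genes were lower. The low-count filter was applied anew each time, so the number of Igkv genes tested could differ from 69. Scaling to the B cell genes Cd79a, Cd79b, Ms4a1, Pax5 and Cd22 left 23 Igkv genes lower, against 0.789% of all genes. That scaling called 85.7% of all genes higher and shifted their median to 2.59 log2. Scaling to the Igkv total gave 43 lower genes, against 2.56% lower and 66.4% higher among all genes, with a median of 1.54 log2. Igkv12-44 was the single higher gene under each of these.

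Of the 10 genes that led the WT libraries, 8 fell, of which Igkv8-19, Igkv3-2, Igkv5-39 and Igkv6-15 lost the threshold under other settings given with them. Igkv5-39 had 739, 680 and 544 counts in WT and 37, 0 and 0 in P1, a log2 fold change of -5.09 ± 1.03 (SE, edgeR adjusted p = 0.0077). Igkv19-93, the only member of its subfamily, had 472, 553 and 668 counts in WT and 18, 0 and 2 in P1 (-5.71 ± 0.77, edgeR adjusted p = 0.0015). Igkv3-4 had 226, 456 and 731 counts in WT and 13, 0 and 0 in P1 (edgeR adjusted p = 0.00334). In each of these the groups did not overlap, and nearly all P1 counts came from P1 3. The call of Igkv5-39 was lost without the low-count filter and with scaling to B cell genes (edgeR adjusted p = 0.0928 and 0.0767).

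The groups did not overlap for Igkv6-15 either, with 386, 505 and 234 counts in WT and 27, 0 and 0 in P1 (edgeR adjusted p = 0.0107, or 0.0882 without the filter and 0.122 with the B cell scaling). Igkv8-19 (261, 364 and 248 against 42, 0 and 0) and Igkv3-2 (181, 240 and 390 against 36, 0 and 0) passed at edgeR adjusted p = 0.0348 and 0.0324. Both calls were lost with DESeq2 (adjusted p = 0.124 and 0.104), without the filter (edgeR adjusted p = 0.192 and 0.183) and with the B cell scaling (0.387 and 0.325). They were also lost without any 1 WT library (0.0631 to 0.109 over both genes) and without P1 4 (0.066 and 0.0673). Igkv6-23, with 263, 327 and 203 counts in WT and 4, 0 and 1 in P1, had the smallest adjusted p among the lower genes, at 0.000579 by edgeR (-6.42 ± 0.62). It was low in P1 3 as well as in the others. Igkv1-135 (418, 467 and 275 against 66, 0 and 0) and Igkv1-117 (273, 341 and 227 against 70, 0 and 0) did not pass, at edgeR adjusted p = 0.0516 and 0.0903, and passed at 0.000867 and 0.00101 without P1 3.

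The genes next in adjusted p were almost empty in P1. Igkv3-10 had 194, 254 and 158 counts in WT and 2, 0 and 0 in P1 (edgeR adjusted p = 0.000644), a pooled ratio 165-fold lower with a counting interval of 45.4 to 1364. Igkv6-20 had 62, 144 and 208 counts in WT and 1, 0 and 0 in P1 (edgeR adjusted p = 0.00129), 225-fold lower with an interval of 40.2 to 8915. Of its 50-base words 64.1% also occurred in Igkv6-29, so its counts are uncertain between the pair. Igkv3-10 shared 53.5% of its words with other genes of subfamily 3, so its counts are uncertain as well. Of the 69 tested genes, 52 had 0 counts in both P1 4 and P1 5.

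The 5 highest mean shares in P1 were Igkv12-44, Igkv1-110, Igkv8-30, Igkv1-117 and Igkv1-135, and the last 4 rested on P1 3 alone. Igkv1-110 had 222, 286 and 167 counts in WT and 111, 0 and 0 in P1 (log2 fold change -2.11, edgeR adjusted p = 0.252). Igkv8-30 had 214, 205 and 119 counts in WT and 110, 0 and 0 in P1 (-1.79, edgeR adjusted p = 0.332). The counts of P1 4 and P1 5 lay below every WT library for both genes. In TMM-scaled CPM, P1 3 also lay below every WT library for Igkv1-110, at 9.55 against 12.6 to 18.4. For Igkv8-30 the count of P1 3 came near to that of WT C, which had the larger library total. In TMM-scaled CPM P1 3 lay above WT C for Igkv8-30, so the groups overlapped. Without P1 3 both genes passed, at edgeR adjusted p = 0.00128 and 0.00149. Scaled to the B cell genes, their signs turned, to 0.56 and 0.89 log2, with neither past the threshold.

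Subfamily 12 was the only one of the 8 subfamilies with at least 5% of counts in either group with a higher share in every P1 library than in every WT library. It held 10.4%, 7.32% and 11.6% in WT and 63.9%, 97.6% and 97.6% in P1, a mean of 9.77% ± 2.21 against 86.4% ± 19.5 (exact permutation p = 0.1, adjusted p = 0.125 over 20 subfamilies). Subfamily 12 has 12 genes, 11 of them on the minus strand and 6 of them pseudogenes. Of the 6 tested, Igkv12-44 was higher and the other 5 were lower.

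The relatives of Igkv12-44 thus went the other way. Igkv12-46 had 261, 216 and 559 counts in WT and 11, 0 and 0 in P1 (log2 fold change -5.86 ± 0.99, edgeR adjusted p = 0.00355). Igkv12-41 had 389, 81 and 69 in WT and 6, 0 and 0 in P1 (-5.60 ± 1.11, edgeR adjusted p = 0.00681). WT libraries varied widely for both, with WT C highest for Igkv12-46 and WT A for Igkv12-41. Both had 0 counts in P1 4 and P1 5, beside 785 and 1895 for Igkv12-44, whose transcript shares words with theirs.

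Igkv12-98, the plus strand member, had 69, 87 and 172 counts in WT and 5, 0 and 2 in P1 (edgeR adjusted p = 0.0033). Igkv12-89 had 50, 221 and 79 in WT and 12, 0 and 5 in P1 (edgeR adjusted p = 0.0159), a call lost without WT B (0.0713) and with the B cell scaling (0.237). Igkv12-38 had 13, 34 and 19 in WT and none in P1, at least 11.9-fold lower against a floor of 3 counts over the group (edgeR adjusted p = 0.00793). The pseudogene Igkv12-40 had 2, 7 and 2 counts in WT and 0 in P1 and was not tested.

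Genes beside Igkv12-44 did not share its rise. On the J side, Igkv5-43 had 125, 149 and 423 counts in WT and 16, 0 and 0 in P1 (log2 fold change -4.83 ± 1.12, edgeR adjusted p = 0.0136), and the pseudogene Igkv12-42 had none in any library. The call of Igkv5-43 was lost without WT C (edgeR adjusted p = 0.0522), without the filter (0.0785) and with the B cell scaling (0.108). On the distal side, Igkv5-45 had 16, 20 and 8 counts in WT and 8, 0 and 0 in P1 and was not tested, and the next gene was Igkv12-46. Of the 50-base words of Igkv5-43 and Igkv5-45, 51.2% and 50.9% also occurred in each other or in Igkv5-40-1, so the counts of these genes are uncertain between them.

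The other 7 large subfamilies had lower shares in every P1 library than in every WT library (exact permutation p = 0.1 and adjusted p = 0.125 for each). Subfamily 6 went from 13.2% ± 1.31 to 1.31% ± 1.25, subfamily 8 from 12.5% ± 0.714 to 2.81% ± 4.39 and subfamily 3 from 11.9% ± 3.49 to 0.589% ± 0.976 (SD, n = 3 each). Subfamily 1 went from 10.2% ± 1.94 to 2.65% ± 4.38, subfamily 5 from 9.80% ± 1.66 to 0.871% ± 1.51 and subfamily 4 from 9.23% ± 2.83 to 1.52% ± 2.04. Subfamily 19 went from 5.57% ± 1.51 to 0.198% ± 0.258. Because shares sum to the whole, a high share of subfamily 12 lowers all others. The large P1 spreads come from P1 3, where for example subfamily 8 held 7.87% and subfamily 1 held 7.70%.

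Subfamilies also differed in how many of their tested genes were lower. In subfamily 3, which lies nearest to the J segments, 7 of 7 were lower, in subfamily 4, the largest, 12 of 14, and in subfamily 6, 6 of 7. In subfamily 8 the count was 4 of 8 and in subfamily 1 it was 1 of 6. These differences between subfamilies were not tested. Of the 12 small subfamilies, 8 had P1 shares below all WT shares, and subfamilies 2, 7, 10 and 20 overlapped between the groups.

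**Figure D3:**
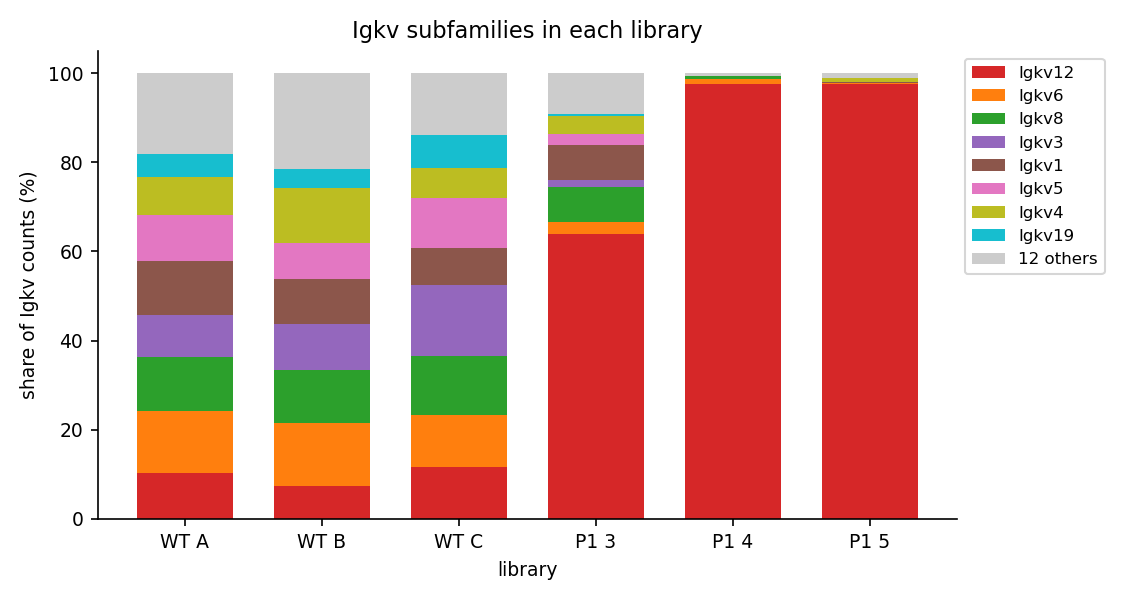
Stacked bars of the share of Igkv counts (%) held by each subfamily in each library; the 8 subfamilies with at least 5% in the mean of either group are coloured and the 12 others are grey. Subfamily 12 fills 63.9% of the bar of P1 3 and 97.6% of those of P1 4 and P1 5, against 7.32% to 11.6% in WT.

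By position, WT B cells drew on the whole locus. The proximal zone held 55.8%, 50.6% and 61.5% of WT Igkv counts, the distal zone 26.2%, 27.6% and 22.2%, and the middle zone 18.0%, 21.8% and 16.3%. In P1 the proximal zone held 79.5%, 99.3% and 97.5%, and the groups did not overlap for any zone (exact permutation p = 0.1, adjusted p = 0.1 over 4 measures). The plus strand share was 39.0%, 41.5% and 40.8% in WT and 16.4%, 0.622% and 1.13% in P1 (exact permutation p = 0.1, adjusted p = 0.1). Igkv12-44 is itself a proximal minus strand gene, so shares without it are given further on.

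Strand and zone were linked by the layout of the locus. The distal zone had 40 plus and 7 minus strand genes, the middle zone 19 and 41, and the proximal zone 16 and 37. In the middle zone 17 of the 19 plus strand genes were pseudogenes, and plus strand genes there held 1.02%, 0.965% and 0.414% of WT counts. Distal plus strand genes held 24.9%, 26.4% and 21.4%, and proximal minus strand genes 42.8%, 36.4% and 42.6%.

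Lower genes were spread over all parts of the locus. Of the tested genes, 11 of 19 were lower in the distal zone, 14 of 19 in the middle and 24 of 31 in the proximal. On the plus strand 21 of 30 were lower, and on the minus strand 28 of 39. The median log2 fold change was -4.17 on the plus strand and -3.95 on the minus strand.

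**Figure D4:**
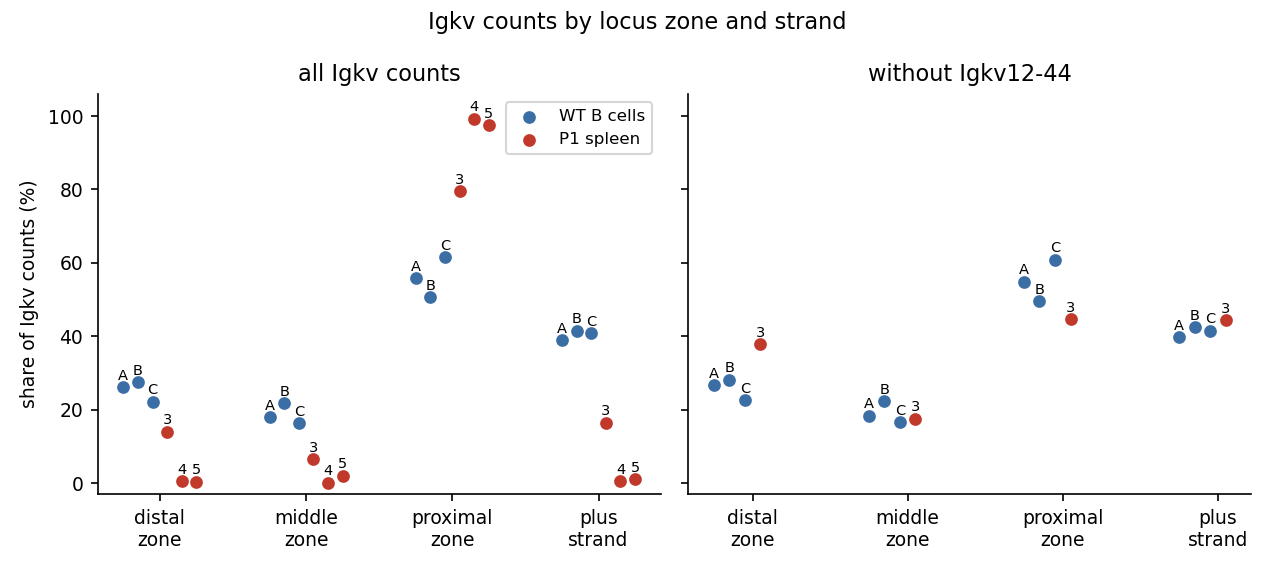
Share of Igkv counts (%) in each locus zone and on the plus strand, for all Igkv genes and without Igkv12-44; points are libraries, and P1 4 and P1 5 are left out of the second panel, where they hold 19 and 54 counts. With Igkv12-44 removed, the plus strand share of P1 3 (44.4%) lies near the WT values (39.8% to 42.4%), and its distal share (37.8%) lies above them (22.6% to 28.2%).

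Without Igkv12-44, P1 3 kept 1361 Igkv counts over 82 genes, P1 4 kept 19 over 5 genes and P1 5 kept 54 over 19 genes. Only P1 3 had enough counts to be set beside the WT libraries, and it is 1 library, so the following values are a description with no test between conditions. Its effective number of genes was 43.0, beside 54.2, 58.5 and 43.5 in WT, where more counts were seen. The share of the remaining counts that P1 3 had in common with a WT library was 58.8%, 61.0% and 50.8%, against 74.6% to 84.8% between WT libraries. The lower depth of P1 3 also lowers such a common share, by an amount that was not tested.

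For each gene, the binomial interval in P1 3 was set against the range of the 3 WT libraries. It lay above that range for 16 genes, below it for 12 and overlapped it for 131, among them 30 genes with no count in any library. Igkv1-110 took 8.16% (6.76 to 9.74) of the remaining counts in P1 3, against 2.41%, 2.33% and 1.85% in WT. Igkv8-30 took 8.08% (6.69 to 9.66), against 2.33%, 1.67% and 1.32%. Both were the leading remaining genes of P1 3. Igkv1-117 at 5.14% (4.03 to 6.45), Igkv1-135 at 4.85% (3.77 to 6.13) and Igkv8-27 at 4.56% (3.51 to 5.80) followed. The interval of Igkv1-135 overlapped its WT range of 3.05% to 4.54%.

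The highest ratios to the WT mean were those of Igkv7-33 and Igkv2-112. Igkv2-112 took 4.19% (3.19 to 5.39), against 0.674%, 0.554% and 0.544% in WT, which is 7.09 times the WT mean. Igkv7-33, the only gene of its subfamily, took 3.09% (2.23 to 4.15), against 0.0761%, 0.448% and 0.0666%, or 15.7 times. WT B already stood apart from the other WT libraries for this gene, with 55 counts against 7 and 6. Of the 16 genes above the range, 5 lay in the distal zone, 4 in the middle and 7 in the proximal. These zones hold 47, 60 and 53 Igkv genes.

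Igkv1-110 and Igkv1-117, which are close copies, both stood above the WT range in P1 3, and their last 300 bases of V exon are shown to mark what tells them apart. Capitals mark the 10 bases that differ between the pair.
Igkv1-110: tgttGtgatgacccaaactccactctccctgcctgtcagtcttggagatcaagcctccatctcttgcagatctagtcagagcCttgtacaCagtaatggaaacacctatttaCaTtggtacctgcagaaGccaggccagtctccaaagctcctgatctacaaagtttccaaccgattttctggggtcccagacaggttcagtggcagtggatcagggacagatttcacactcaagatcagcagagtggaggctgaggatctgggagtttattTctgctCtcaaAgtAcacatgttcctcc
Igkv1-117: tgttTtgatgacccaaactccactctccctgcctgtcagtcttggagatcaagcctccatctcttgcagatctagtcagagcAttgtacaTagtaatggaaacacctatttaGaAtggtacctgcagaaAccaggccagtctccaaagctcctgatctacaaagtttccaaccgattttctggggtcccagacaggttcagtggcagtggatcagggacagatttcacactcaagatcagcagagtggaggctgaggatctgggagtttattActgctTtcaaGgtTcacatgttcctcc
Of their 50-base words many occurred elsewhere, 50.9% for Igkv1-110 and 49.9% for Igkv1-117, so the split between them is uncertain.

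The 12 genes below the WT range included several of the WT leaders. Igkv5-39 took 2.72% (1.92 to 3.73), against 8.03%, 5.54% and 6.04% in WT. Igkv19-93 took 1.32% (0.786 to 2.08), against 5.13%, 4.51% and 7.42%, and Igkv3-4 took 0.955% (0.510 to 1.63), against 2.46%, 3.72% and 8.12%. Igkv6-23 took 0.294% (0.0801 to 0.751), against 2.86%, 2.67% and 2.25%. Of the 12, 9 lay in the proximal zone, which held 49.5% to 60.9% of the remaining WT counts. Igkv3-7, also there, had 0 counts in P1 3, with an upper limit of 0.271%, against 0.543%, 0.554% and 0.50% in WT. A gene with a share at or under that limit in any WT library could not be placed below the range.

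By subfamily, the largest parts of the remaining counts of P1 3 lay in subfamilies 8 and 1, both above the WT range. Smaller subfamilies also lay above it. Subfamily 2 held 5.29% (4.16 to 6.62), against 1.33% to 1.77% in WT. Subfamily 7 held 3.09% (2.23 to 4.15), against 0.0666% to 0.448%, and subfamily 15 held 2.28% (1.55 to 3.22), against 1.02% to 1.35%. Subfamilies 3, 6, 12, 17 and 19 lay below it. Subfamily 8 held 21.2% (19.1 to 23.5), against 12.4%, 12.3% and 13.5% in WT, and subfamily 1 held 20.8% (18.7 to 23.1), against 12.4%, 10.3% and 8.43%. Subfamily 3 held 4.63% (3.58 to 5.88), against 9.72%, 10.6% and 16.2%, and subfamily 6 held 7.13% (5.82 to 8.63), against 14.0%, 14.4% and 11.9%. Subfamily 12 without Igkv12-44 held 2.498% (1.74 to 3.47), against 8.54%, 5.28% and 10.02%. In position the distal zone held 37.8% (35.3 to 40.5), the middle 17.6% (15.6 to 19.7) and the proximal 44.6% (41.9 to 47.3). In WT the proximal zone held 49.5% to 60.9% without Igkv12-44.

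**Figure D5:**
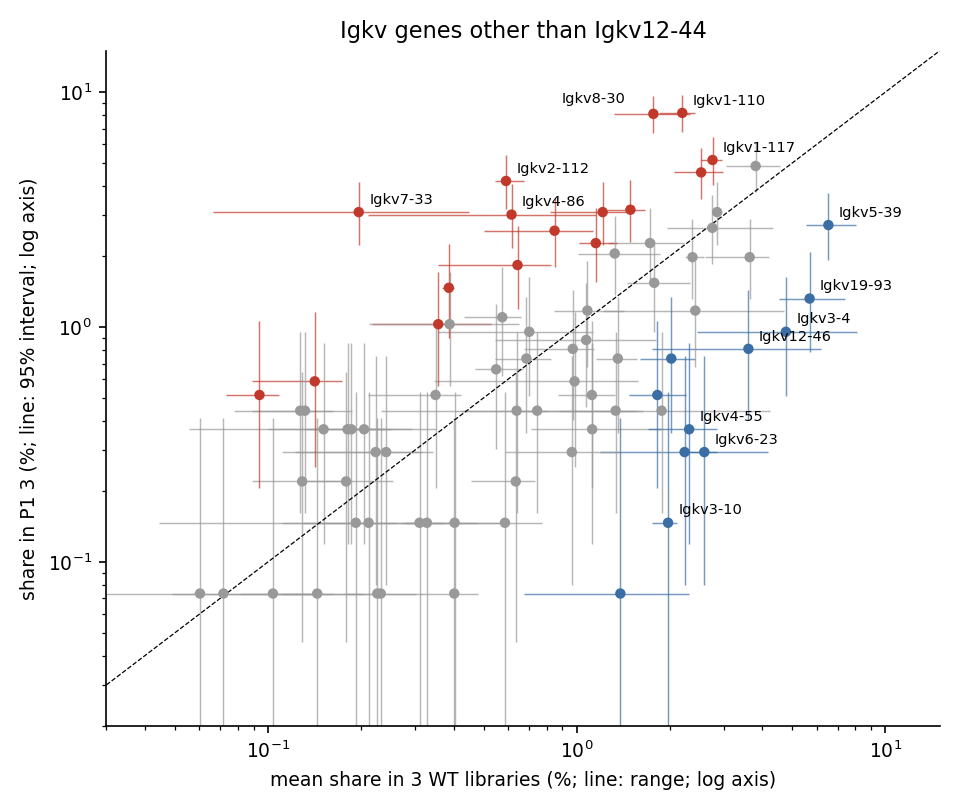
Share of Igkv counts other than Igkv12-44 in P1 3 (%, with 95% binomial interval) against the mean of the 3 WT libraries (%, with their range), both on log axes, for the 78 genes with a P1 3 count and a mean WT share of at least 0.05%; intervals that reach below 0.02% are drawn to the axis, and the dashed line marks equal shares. Red genes lie above the WT range, such as Igkv1-110 at 8.16%, and blue genes below it, such as Igkv5-39 at 2.72%.

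P1 3 also stood apart in genes of other B lineage stages. Rag1, which cuts DNA for V to J joining, had 126 counts in P1 3, 0 in P1 4 and P1 5, and 13, 8 and 7 in WT. Dntt, which adds bases at the joins, had 61, 2 and 2 counts in P1 and 0, 4 and 12 in WT. Igll1 and Vpreb1, parts of the surrogate light chain of early B cells, had 35 and 27 counts in P1 3, 0 in both other P1 libraries and at most 4 in a WT library. Rag2 had 5 counts in P1 3 and at most 1 elsewhere. Vpreb2 had none in any library. Jchain, which joins antibody units in plasma cells, had 1017, 9 and 3 counts in P1 and 2225, 3305 and 2555 in WT. The other plasma cell markers did not set P1 3 apart in this way. Sdc1, Prdm1, Xbp1 and Mzb1 stood at 10.8, 28.4, 116.2 and 28.7 TMM-scaled CPM in P1 3. In P1 4 they stood higher, at 19.4, 34.0, 118.2 and 31.0, and in P1 5 at 10.21, 15.43, 52.78 and 52.55. The TMM factor was 0.578 for P1 4 and 1.13 for P1 3, so the order of P1 3 and P1 4 depends on the scaling. Tnfrsf17 had 9, 0 and 2 counts in P1. The part of cells of these stages in the remaining kappa counts of P1 3 was not tested.

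The markers of other cells moved with the groups too. Summed CPM of the 5 B cell genes were 5008 to 5707 in WT and 617.6 to 1665 in P1, and all 5 were lower. Plasma cell markers summed to 245.2 to 329.8 CPM in WT and 131.5 to 272.3 in P1, with 1 of 5 tested higher (Prdm1) and none lower. All 6 T cell markers were higher, from 6.49 to 10.6 CPM in WT to 142.5 to 379.8 in P1. Of 6 myeloid markers 4 were higher (92.3 to 232.4 against 441.5 to 3552), and all 6 erythroid markers were higher (46.0 to 68.5 against 4250 to 180400, highest in P1 4). No marker was at 0 in all WT libraries, and the part of these cells in the Igkv levels was not tested. Shares within Igkv counts do not use the library total.

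The J segments, which lie between the V genes and Igkc, had few counts. Igkj1 had 69, 50 and 43 counts in WT and 13, 16 and 34 in P1 and overlapped between the groups in CPM (log2 fold change -0.31 ± 0.54, edgeR adjusted p = 0.71). Igkj2 (-1.55 ± 0.48), Igkj3 (-2.29 ± 0.44) and Igkj5 (-1.99 ± 0.60) were lower, at edgeR adjusted p = 0.0437, 0.00605 and 0.0381. Igkj4 did not pass (-1.24 ± 0.52, edgeR adjusted p = 0.112).

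The lambda light chain, which a B cell makes when it does not use kappa, was low as well. Iglc1 (-2.40 ± 0.46), Iglc2 (-2.50 ± 0.32) and Iglc3 (-3.80 ± 0.49 log2) fell, at edgeR adjusted p = 0.00586, 0.00116 and 0.00128. Iglv1 had 692, 920 and 827 counts in WT and 151, 0 and 2 in P1 (-3.51 ± 1.18, edgeR adjusted p = 0.0582). Iglv2 had 118, 262 and 82 in WT and 38, 4 and 0 in P1 (-2.76 ± 1.00, edgeR adjusted p = 0.0739), and Iglv3 had none. As with kappa, P1 3 held most of the lambda V counts found in P1.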

How the data were processed

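Values are raw counts per gene, deposited by the authors as a single table for all 6 libraries, with each gene's coordinates, strand and length. Per the labels' protocols, total RNA went into directional libraries. The submitters' processing notes name Trim Galore for trimming, HISAT2 and the GRCm39 build for alignment, and featureCounts for the deposited counts. Versions, options, the counting strand and the handling of reads that match several genes are not given in the sources used here, so counts of near-identical V genes, and of 2 Igkv rows that overlap another row, are uncertain. No value column was left without a sample or group.

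Genes received symbols by gene ID (51948 of 56884). The whole table was fitted with edgeR 4.0.16 (R 4.3.3): filterByExpr by group, TMM, a robust quasi-likelihood F-test without covariates, and Benjamini-Hochberg adjustment at 0.05. Library totals were 12196413 to 14266132 counts in WT and 7510327 to 10363396 in P1. No library repeated another: pairs within WT gave chi-square values of 19.5 to 20.9 per degree of freedom, and pairs within P1 gave 123.7 to 280.2. Shares are percentages of a library's Igkv counts, tested by exact permutation (Python 3.11.15, scipy 1.17.1). The scripts were tested on simulated data.

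Alternatives were other scalings, no filter, DESeq2 1.42.0, counts per kb, a minimum of 10 counts, omission of Igkv12-44 and omission of each library. Named genes were the leading gene of each library, the 10 highest in WT and 5 in P1, the Igkv12 members with at least 10 counts, the higher genes, the 3 lower genes of smallest adjusted p, and the 2 nearest neighbours on each side of Igkv12-44. Genes described from P1 3, P1 4 or P1 5 after Igkv12-44 was omitted, and Igkv1-35 and Igkv10-95, were chosen after their values were seen. The members, lists and tests were chosen with earlier results of these data known. The B cell list had 1 more member, which is not reported here and entered no sum or scaling. V exons were read from GENCODE M21 transcripts, whose lengths matched the table for 157 of 160 genes. A search for promoter and recombination signal motifs was not run, because the sequences it needs were not used here.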

Additional observations from a re-analysis of the deposited data

How the results depend on the processing

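No paired analysis was possible because no label ties the WT columns to a replicate number and the labels of the groups share only number 3. For 20 single genes, 218 alternatives were computed: 189 kept direction and side of the threshold, 23 lost it, 4 gained it and 2 reversed. Shares, effective numbers and ratios cannot pass 0.05 with 3 libraries a group, so only their direction and size were compared. The count of lower Igkv genes, 49, was 23 when scaled to B cell genes and 30 to 75 when single libraries were left out, lowest without WT B and highest without P1 3. It was 48 with DESeq2, 52 with library totals and 57 without a filter. Igkv12-44 was the single higher gene in each, with log2 fold changes of 3.63 to 6.45. Among all genes, 1702 were lower with all libraries and TMM, and 122 with the B cell scaling. Without single libraries, 815 (without WT B) to 2313 (without P1 3) were lower. DESeq2 gave 2207, library totals 1459 and no filter 1912. Under the B cell scaling Igkv1-110 (0.56) and Igkv8-30 (0.89) reversed. Without Igkv12-44, the P1 minus WT differences in share reversed to 2.675, 6.59 and 1.989 percentage points for subfamilies 4, 6 and 8, -2.796 for subfamily 12, and 0.5156, 13.2 and -13.72 for the distal, middle and proximal zones. The differences of subfamily 1 (-7.517) and the plus strand (-34.38) shrank to -0.3598 and -4.113. Those P1 means rest on 19 and 54 counts in P1 4 and P1 5. The Igkv to Igkc ratio difference, -0.00255, ranged from -0.0427 without P1 4 to 0.0458 without P1 5. The cause of these changes was not tested. The motif search was not run. Depth limited P1 4 most: 3 counts are 0.373% of its Igkv total.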

Other observations

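The few counts outside Igkv12-44 in P1 5 lay mostly in one stretch of the locus. Of its 54 remaining counts, 48 (88.9%) fell between Igkv2-107 and Igkv4-81, a stretch of 665 kb with 32 Igkv genes that was chosen after its values were seen. The same stretch held 17.3%, 17.9% and 15.9% of the remaining counts in WT A, B and C, 18.6% in P1 3 and 1 of 19 counts in P1 4. In P1 5 the counts were spread over 13 of the 32 genes, 6 on the plus strand and 7 on the minus strand. Igkv10-95 and Igkv4-81 had 10 counts each, Igkv12-89 and Igkv1-88 had 5 each and Igkv4-86 had 3. Pseudogenes held 8 of the 48, among them Igkv15-97 with 4 counts, which had 0 in all other libraries, and Igkv2-95-1 with 1, also 0 elsewhere. These are small counts of a single library, and no test was made.

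In P1 4 the 19 remaining counts lay in 5 genes. Igkv6-32 had 9, Igkv14-111 and Igkv8-21 had 4 each, and Igkv9-123 and Igkv10-95 had 1 each.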
